A study of Rattus norvegicus with 9 samples.

Results

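The libraries described here are the 3 controls of a knockdown series in cultured heart muscle cells of newborn rats, 3 of 9 libraries in all. They were chosen by their labels alone, as the cells given a universal negative control siRNA. The other 6 libraries come from cells given siRNA against Llgl1 together with Llgl2, or siRNA against Yap, with 3 libraries per group. All groups share the rest of the protocol. Hearts of 2-day-old Sprague Dawley rats were dissociated with a commercial kit, and myocytes were enriched on a Percoll density gradient and kept in medium with 15% fetal bovine serum. Transfection followed after 16 hours, with 2 siRNAs per target at 25 nM each, and RNA was collected 48 hours later. Poly-A RNA was sequenced by a low-input protocol. The controls are therefore transfected, serum-fed cells and not untreated tissue. The labels do not say whether animals were pooled, or whether the 3 libraries came from separate cultures, so the spread given below may be technical.

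Heart muscle cells contract by sliding myosin filaments along actin filaments, and the troponin and tropomyosin proteins on the actin filament switch this on when calcium is released from the sarcoplasmic reticulum. Most of these proteins exist as isoforms made by related genes, and rodent hearts change isoform around birth: the fast Myh6 heavy chain replaces Myh7 in the ventricle, and cardiac Tnni3 replaces the slow skeletal troponin I Tnni1. Metabolism moves from glucose and lactate towards fatty acids over the same days. Preparations of neonatal hearts also carry endothelial cells, fibroblasts and macrophages, which density gradients reduce but do not remove.

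Levels are given as FPKM, the sequenced fragments per kilobase of transcript scaled to the size of the library, which is per length, so that genes can be set beside each other. The table held 14636 genes. At least 1 FPKM in each of the 3 control libraries, called detected below, was reached by 10250 of them, or 70%. A mean of 10 FPKM or more was reached by 6617 genes, or 45.2%, and a mean of 100 FPKM or more by 979 genes, or 6.69%. All 3 libraries listed 1139 genes, or 7.78%, at 0. The FPKM values summed to 573430 to 585883 per library, and 10449 to 10521 genes per library were at or above 1 FPKM. Pearson correlations of log2 values across genes were 0.995 to 0.996 between libraries, where genes are not independent replicates. Read depth is unknown. Among 928 low genes, the commonest ratio between any pair of libraries lay from 1 to 1.07. Because FPKM is already scaled to library size and the values are rounded, this does not settle their relative depths. Library 3 stood apart from the other 2, with more RNA of cardiomyocyte markers and less of endothelial, fibroblast and macrophage markers, so values are given per library. Leaving out any 1 library moved none of the main ratios and marker shares by more than the SD between libraries. With 3 libraries no such mean can move further, so this does not test their stability. Each targeted gene was lowest in the libraries labelled with its siRNA, although Yap siRNA libraries also had less Llgl1 and Llgl2 than the controls. In Yap siRNA libraries Llgl1 had 9.5, 7.14 and 9.88 FPKM and Llgl2 had 8.11, 8.69 and 12.01 FPKM. Yap1 in Llgl1/2 siRNA libraries, at 46.5, 53.7 and 56.8 FPKM, overlapped the controls. Yap1 had 5.90, 4.43 and 6 FPKM in Yap siRNA libraries, against 55.3, 60.8 and 63.1 FPKM in the controls. In Llgl1/2 siRNA libraries Llgl1 had 4.76, 4.65 and 4.75 FPKM and Llgl2 had 6.51, 7.33 and 7.62 FPKM, against 12.1, 11.9 and 12.4 FPKM and 13.9, 12.04 and 14.9 FPKM in the controls, with no overlap for any of the 3 genes.

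The control transcriptome was led by cardiac hormone and sarcomere genes. The 10 highest genes were the same in every library, namely Nppa, Actc1, Tnnt2, Tpm1, Ankrd1, Myl2, Tnnc1, Eef1a1, Gapdh and Myl3, and they held 8.33%, 8.45% and 9.16% of the FPKM sum in libraries 1, 2 and 3. The 40 highest genes held 17.9%, 18.01% and 18.8%, and the 361, 372 and 352 highest genes held 50%. Of the 40 highest genes, 12 belonged to the contractile and sarcomere lists, 13 encoded cytosolic ribosomal proteins, 2 the natriuretic peptides and 2 subunits of the respiratory chain or ATP synthase. The contractile lists cover whole families, so not all of the 12 are sarcomere genes. Cytoplasmic Actb, ranked 38th, is counted among them. Of the 14 measured cardiomyocyte markers, 7 were among the 40 highest genes. All 14 were at 10 FPKM or more, against 45.2% of all genes. These markers were chosen with earlier results of these data known, so the counts are not independent support for the cardiac identity given by the labels.

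The hormone genes stood at the top. Nppb, encoding B-type natriuretic peptide, ranked 11th with 2908, 2759 and 2847 FPKM in libraries 1, 2 and 3. Nppa, which encodes atrial natriuretic peptide, had the highest level of all genes, with 9650.2, 9151 and 9683 FPKM. Both are hormones that lower blood pressure and are made by stretched or immature myocytes. The Nppb/Nppa ratio was 0.299 ± 0.0042 (SD, n = 3 libraries), with a range of 0.294 to 0.302, the smallest coefficient of variation of all 45 ratios computed. Nppc, the gene for the C-type peptide of endothelial cells, was listed at 0 in every library. The guanylate cyclase receptors Npr1 and Npr2 had means of 7.35 and 4.37 FPKM, and the clearance receptor Npr3 had 7.96 FPKM. Corin, the protease that cuts the Nppa precursor, was far lower than its substrate, at 1.19, 1.32 and 1.4 FPKM.

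Nppa and Nppb are neighbours on chromosome 5, on the plus strand of the RefSeq build GRCr8, and their promoter windows are shown because these genes rank 1st and 11th of all genes. Each window runs from 250 bases before to 50 bases after the annotated start, at chr5:163711934-163712233 for Nppa and chr5:163699758-163700057 for Nppb. Capitals mark matches to TATAAA, the core of the TATA box, or to CATTCC, the M-CAT motif known to be bound by TEAD factors, on either strand.
Nppa: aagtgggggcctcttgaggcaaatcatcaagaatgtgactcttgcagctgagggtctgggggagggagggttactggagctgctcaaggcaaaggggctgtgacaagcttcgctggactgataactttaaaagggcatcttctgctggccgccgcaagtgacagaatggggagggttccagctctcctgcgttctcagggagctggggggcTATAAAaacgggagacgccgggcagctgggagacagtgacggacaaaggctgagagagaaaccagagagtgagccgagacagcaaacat
Nppb: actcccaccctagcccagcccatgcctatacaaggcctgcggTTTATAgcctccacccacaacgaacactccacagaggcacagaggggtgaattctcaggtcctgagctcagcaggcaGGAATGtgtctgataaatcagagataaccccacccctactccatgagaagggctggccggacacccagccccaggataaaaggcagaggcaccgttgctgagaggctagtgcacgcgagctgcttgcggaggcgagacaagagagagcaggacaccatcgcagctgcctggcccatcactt
The Nppa window held TATAAA on the plus strand, with its first base 39 bases before the start (position -39), while the Nppb window held it on the minus strand at -208 and CATTCC on the minus strand at -131. Of 27457 RefSeq windows of the same length, 14.3% held TATAAA and 13.9% held CATTCC. Neither window held GATAAG, 1 form of the GATA factor motif, found in 6.91% of windows. Both windows do hold the shorter GATAA, which was not counted over all windows, so GATA sites are not shown to be absent. Neither held a MEF2 motif, here CTA and TAG separated by any 4 bases, found in 3.83%. Nor did either hold a strict CArG box, the serum response factor motif, here CC and GG separated by 6 bases of A or T, found in 1.64%. The Nppa window does hold ctttaaaagg, which differs from this form at 1 base. Looser forms of the MEF2 and CArG motifs were not counted, so such sites are not shown to be absent. Among the 32 of the 40 highest genes with a window, 6 held TATAAA and 9 held CATTCC. Matches are letters in a window and do not show binding.

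Thin filament genes filled most of the next ranks. Cardiac alpha-actin, Actc1, had 7705, 8017 and 8451 FPKM, and cardiac troponin T, Tnnt2, had 5068, 5145 and 5903 FPKM. Tpm1, the main tropomyosin gene of the heart, had 5048, 5126 and 5889 FPKM, listed with 12 transcripts in the table, so muscle and non-muscle forms were not separated. Library 3 was the highest for each of the 3 genes. Troponin C, Tnnc1, which binds the calcium, had 3848, 3622 and 4060 FPKM. Ankrd1, a stretch-responsive protein of the sarcomere and nucleus, ranked 5th with 3808, 4098 and 4319 FPKM.

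**Figure D1:**
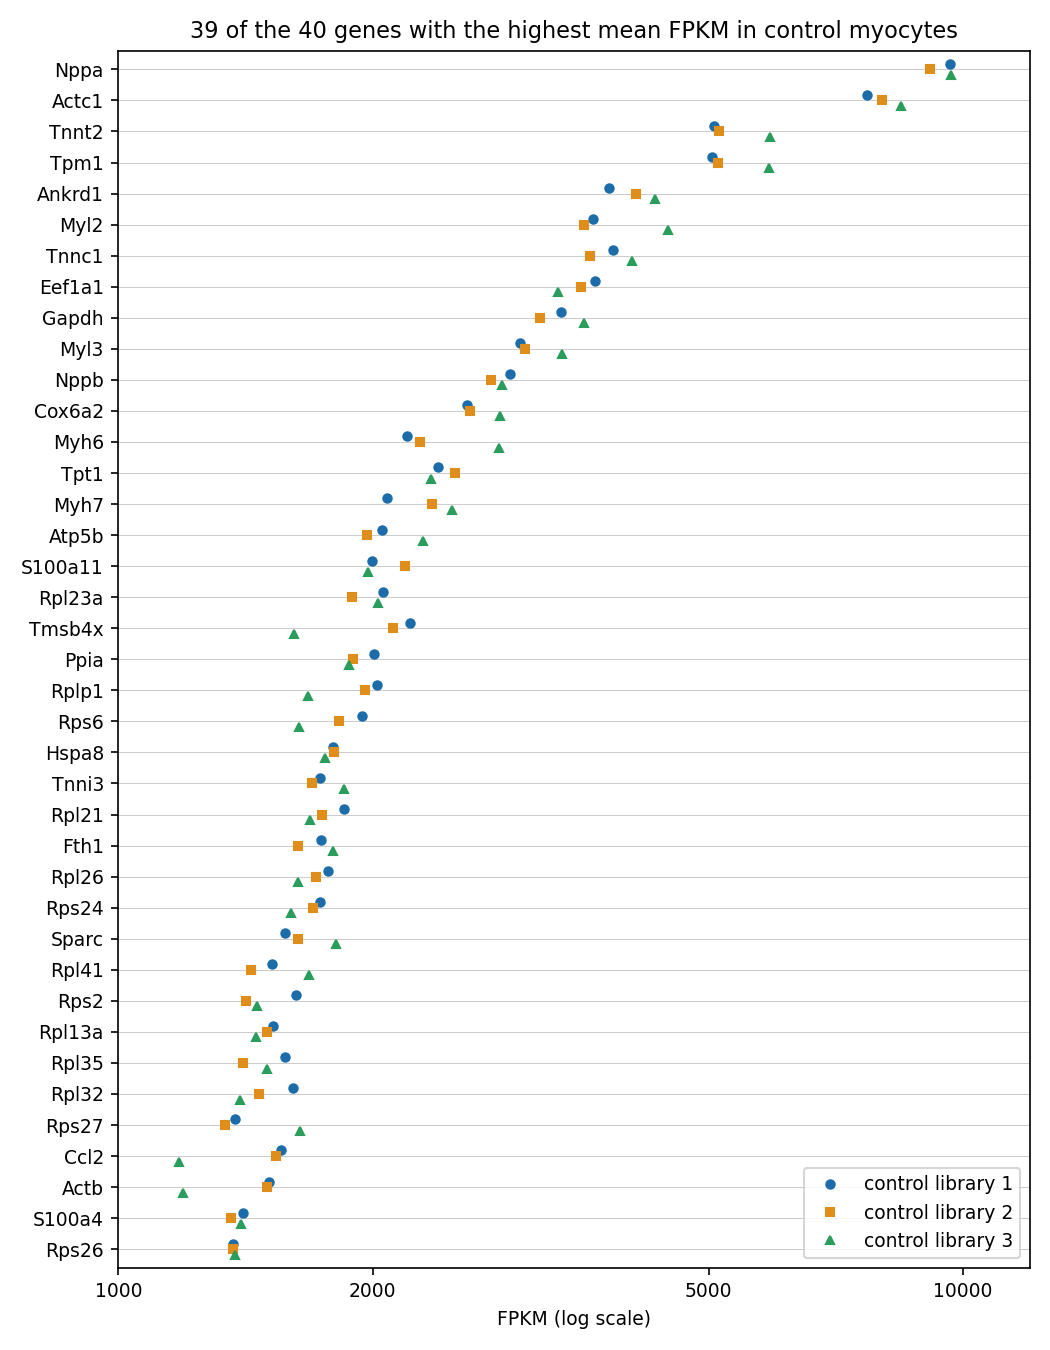
The levels of 39 of the 40 genes with the highest mean FPKM in the control myocytes, from the highest at the top, with FPKM on a log axis and 1 symbol per library. Nppa lies between 9151 and 9683 FPKM and Rps26, ranked 40th, between 1367 and 1373 FPKM, and library 3 lies to the right for most sarcomere genes and to the left for Tmsb4x, Ccl2 and Actb.

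Of the actins named here, skeletal alpha-actin, Acta1, a fetal isoform in the heart, had 510.5, 545 and 549 FPKM. Actc1 was 15.1 ± 0.34 times as high as Acta1. The cytoplasmic actins Actb and Actg1 had means of 1399.8 ± 179 FPKM and 1037 ± 143 FPKM, both lowest in library 3, and enteric Actg2 had 6.76 ± 0.51 FPKM. Coding sequences of the actins are nearly alike, and how reads shared by them were counted is not given in the sources used here, so the ratios within this family are uncertain.

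The myosin heavy chains were almost evenly shared between the adult and the fetal isoform. Myh6 (alpha) had 2195, 2276 and 2822 FPKM and Myh7 (beta) had 2079.5, 2353 and 2484 FPKM. The Myh6/Myh7 ratio was 1.06, 0.967 and 1.14 in libraries 1, 2 and 3, on both sides of 1, and the ranges of the genes overlapped. Myh6 made up 49.9% and Myh7 47.3% of the FPKM of the 12 measured heavy chain genes. These neighbouring genes also share much sequence, with the same limit as the actins. Non-muscle Myh9 and Myh10, motors of dividing and migrating cells, had 75.7, 80.7 and 50.9 FPKM and 42.5, 48.01 and 45.1 FPKM. The skeletal heavy chains Myh1, Myh2, Myh4 and Myh8 had means of 0.0067 to 0.083 FPKM, embryonic Myh3 had 2.61 FPKM, and smooth muscle Myh11 had 2.43 FPKM.

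Light chains were of the ventricular kind. The ventricular regulatory chain Myl2 had 3647, 3559.9 and 4477 FPKM, whereas its atrial counterpart Myl7 had 59.3, 63.8 and 81.7 FPKM. Their ratio was 57.4 ± 3.6. The ventricular essential chain Myl3 had 2992, 3029 and 3355 FPKM and atrial Myl4, which fetal ventricles also make, had 115, 116 and 143 FPKM, a ratio of 25.2 ± 1.5. For both pairs of light chains the ventricular form thus exceeded the atrial one in every library by far more than the spread between libraries. Among the general light chains, Myl6 had 1167 ± 41 FPKM, Myl12a 1112 ± 42 FPKM, Myl9 281 ± 48 FPKM and Myl12b 234 ± 12 FPKM. The skeletal chains Myl1 and Mylpf were at 1.95 and 0.977 FPKM. Of the kinases that phosphorylate them, cardiac Mylk3 had 135 ± 18 FPKM and smooth muscle Mylk 1.82 ± 0.14 FPKM. Nppa, an atrial marker of the adult heart that fetal and neonatal ventricles also express, was the highest gene of all, as described above, whereas chamber transcription factors were far lower on both sides. Irx4, a ventricular transcription factor, had 21.6, 20.5 and 29.3 FPKM and Hey2 had 6.91 ± 0.84 FPKM, while the atrial factors Nr2f2 and Nr2f1 had 21.4 ± 1.6 FPKM and 0.537 ± 0.087 FPKM.

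Troponin I was mostly of the cardiac form. Tnni3 had 1734, 1695 and 1852 FPKM and the fetal slow skeletal form Tnni1 had 428, 419 and 486 FPKM. Tnni3/Tnni1 was 3.97 ± 0.14, so Tnni1 still made up a sizeable share. Slow skeletal Tnnt1 had 3.69 ± 0.89 FPKM, against a Tnnt2 mean of 5372 FPKM. Fast skeletal Tnnt3 and Tnni2 were listed at 0 in every library, and Tnnc2 at 0 in 2 of the 3. The remaining tropomyosins Tpm4, Tpm2 and Tpm3 had 724 ± 54 FPKM, 334 ± 15 FPKM and 295 ± 12 FPKM.

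**Figure D2:**
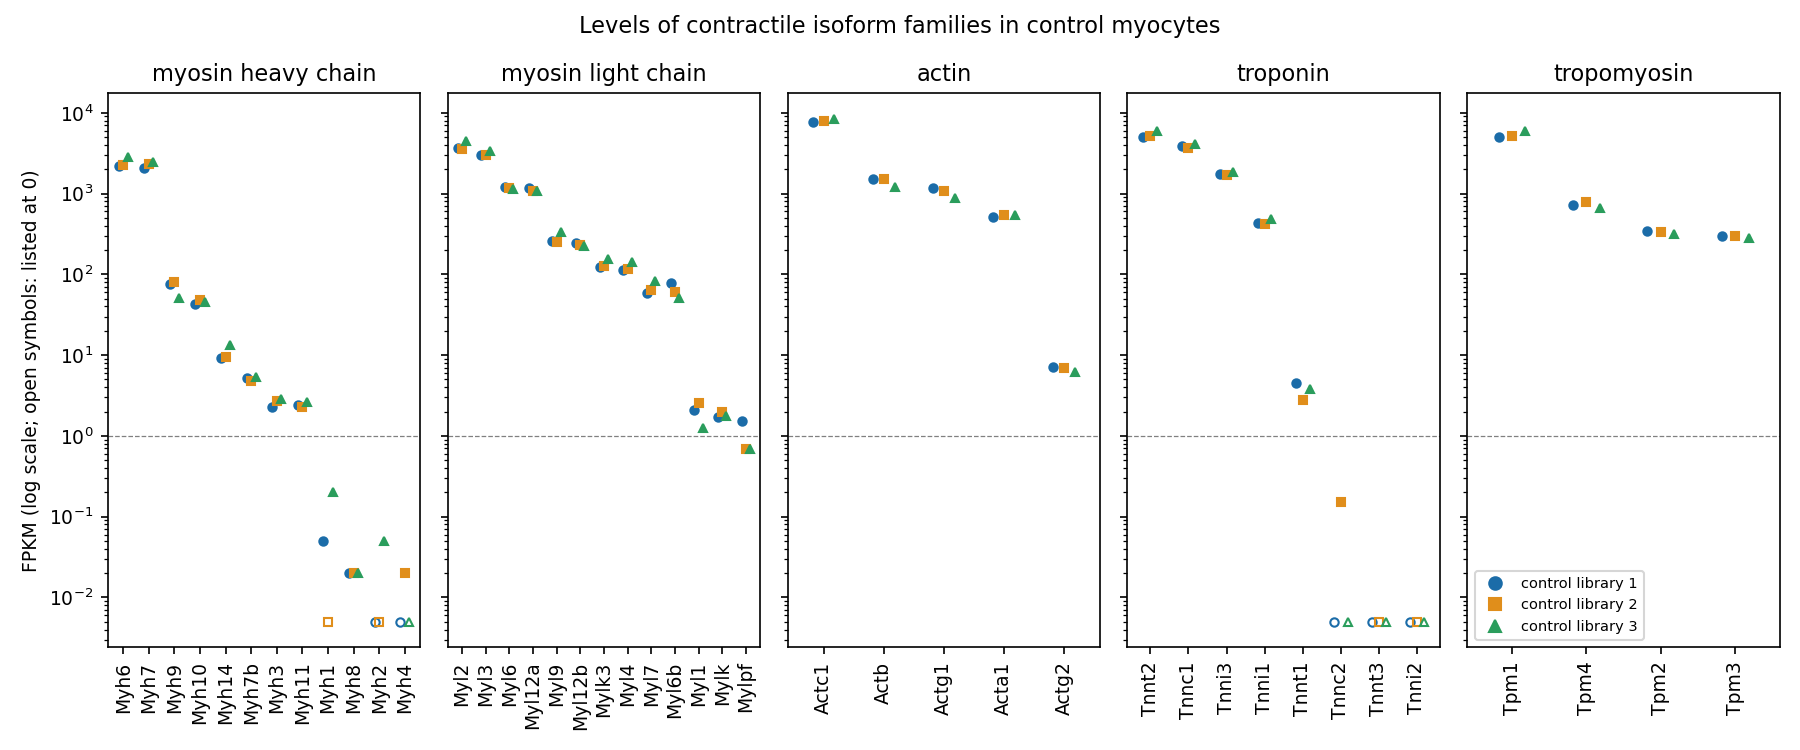
FPKM of measured genes of 5 contractile families in the 3 control libraries, on a log axis shared by the panels. Open symbols, placed at the foot of the axis, stand for values listed at 0, and the dashed line marks 1 FPKM. Myh6 and Myh7 lie between 2079.5 and 2822 FPKM and overlap, whereas Myl2, Actc1, Tnnt2 and Tpm1 lead the other panels in every library.

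Of the Z-disc and M-band genes, 19 of 23 measured members were detected, against 70% of all genes. Actn2, the alpha-actinin that crosslinks actin at the Z-disc, had 1059.8, 1094 and 1203 FPKM, and Csrp3, a Z-disc LIM protein, had 1022, 1163 and 1082 FPKM. Desmin, Des, the intermediate filament of muscle, had 649.9, 676 and 684 FPKM. All 3 were above 600 FPKM in every library. Ldb3, Myoz2 and Lmod2, which serve the Z-disc and filament length, had 471 ± 69 FPKM, 318 ± 31 FPKM and 211 ± 26 FPKM. Myosin binding protein was of the cardiac form, with Mybpc3 at 223, 237 and 281 FPKM, whereas skeletal Mybpc2 had 9.22 FPKM and Mybpc1 0.01 FPKM. Of the M-band proteins, Myom2 had 87.8 ± 14 FPKM and Myom1 111 ± 7.3 FPKM, a Myom2/Myom1 ratio of 0.7896 ± 0.084. Skeletal Actn3, Myoz1 and Ankrd2 were at 0.013 to 0.1 FPKM on average. In all, 37 of the 576 genes of the lists, among them Ttn, Ryr1 and Mef2c, were not analysed here.

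Genes that hold myocytes to each other and to matrix were likewise present. Cdh2, the cadherin of the intercalated disc, had 272, 289.6 and 317 FPKM, and the plakophilin Pkp2 of desmosomes had 124 ± 4.3 FPKM. Gja1, encoding connexin 43 of ventricular gap junctions, had 169, 173 and 177 FPKM. It was 38.4 ± 7.5 times as high as Gja5, the connexin of atria, conduction fibres and arteries, at 4.32, 5.63 and 3.89 FPKM. Gjc1 and vascular Gja4 lay between them at 22.4 ± 1.2 FPKM and 16.8 ± 0.71 FPKM. Among integrins, Itgb1 had 759 ± 20.4 FPKM and the muscle laminin receptor Itga7 104 ± 9.3 FPKM. Caveolin 3, Cav3, the muscle form, had 166, 162 and 195 FPKM, and Cav1, common in endothelium, had 95.8, 83.6 and 70.05 FPKM, with the lowest value of Cav1 and the highest of Cav3 in library 3.

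Calcium handling genes were those of cardiac muscle. Atp2a2, the SERCA pump that returns calcium to the sarcoplasmic reticulum, had 1052, 1003 and 1217 FPKM. The skeletal pump Atp2a1 had 1.04, 0.41 and 0.97 FPKM and Atp2a3 0.11 FPKM. The Atp2a2/Atp2a1 ratio of 1011, 2447 and 1255 in libraries 1, 2 and 3 was poorly determined because its denominator was near or under 1 FPKM. Phospholamban, Pln, which restrains Atp2a2, had 707, 673 and 759.6 FPKM, and its atrial relative sarcolipin, Sln, had 9.05, 13.6 and 13.1 FPKM. Pln/Sln was 61.8 ± 15 and Pln/Atp2a2 0.656 ± 0.027. Calsequestrin, the calcium store of the reticulum, was mainly cardiac Casq2 at 703, 723 and 793 FPKM, against 43.1, 44.2 and 41.3 FPKM for skeletal Casq1, a ratio of 17.3 ± 1.7. The release channel Ryr2 had 33.5, 37.8 and 46.4 FPKM, and the inositol trisphosphate receptors Itpr1, Itpr2 and Itpr3 had means of 8.41, 1.77 and 1.64 FPKM. Slc8a1, the exchanger that moves calcium out of the cell, had 123, 123 and 142 FPKM, whereas the neuronal exchangers Slc8a2 and Slc8a3 were under 0.1 FPKM on average. Of the junctional proteins, Jph2 had 73.9 ± 7.5 FPKM and skeletal Jph1 3.3 ± 0.29 FPKM.

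Calcium channel pores were far lower than Atp2a2, and a T-type channel stood at a level close to that of the cardiac L-type channel. Cacna1c, the L-type pore that triggers calcium release, had 10.6, 10.9 and 13.8 FPKM. Cacna1g, a T-type pore that is high in immature and pacemaker myocytes, had 12.1, 13.9 and 13.3 FPKM. The Cacna1c/Cacna1g ratio was 0.898 ± 0.13 and the ranges overlapped, so their order was not settled by these libraries. Cacna1h, the other cardiac T-type pore, had 7.07, 8.02 and 9.23 FPKM. Cacna1s, the L-type pore of skeletal muscle, was measurable at 6.09, 5.98 and 6.19 FPKM, and Cacna1d, the L-type pore of pacemaker cells, was at 0.19 FPKM. Auxiliary subunits were led by Cacnb2, with 34.8 ± 2.98 FPKM, and Cacna2d2, with 33.04 ± 3.6 FPKM, followed by Cacna2d1 with 13.7 ± 1.1 FPKM.

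Of the sodium channel pores named here, which in excitable cells carry the upstroke of the action potential, Scn1a had 1.05 ± 0.22 FPKM, and Scn2a, Scn3a, Scn4a, Scn7a, Scn8a and Scn10a were at 0.12 FPKM or less on average. The beta subunits Scn3b and Scn4b had 9.71 ± 2.2 FPKM and 3.08 ± 0.34 FPKM, and Scn2b was listed at 0.

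Repolarising potassium channels were led by the delayed rectifiers. Kcnq1, the pore of the slow current, had 17.8, 18.9 and 21.6 FPKM and Kcnh2, the pore of the rapid current, had 17.4, 17.8 and 21.2 FPKM. Their ratio was 1.03 ± 0.024 and the ranges overlapped. The pores of the transient outward current were lower, with Kcnd2 at 2.76, 2.52 and 2.86 FPKM and Kcnd3 at 2.97, 2.84 and 3.11 FPKM. Kcnd2 was below Kcnd3 in each library, with a Kcnd2/Kcnd3 ratio of 0.912 ± 0.022, but their ranges overlapped. Their subunit Kcnip2, which increases in the heart after birth, had 8.97, 6.26 and 11.2 FPKM, and Kcne1, the partner of Kcnq1, had 7.65, 6.31 and 8.03 FPKM. Kcna5, an atrial channel, had 0.02 FPKM and Kcna4 0.64 ± 0.085 FPKM. Kcna1 and Kcna2 were listed at 0.

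Among inward rectifiers, Kcnj2, which sets the resting potential, had 3.02, 3.73 and 4.73 FPKM, and Kcnj12 had 1.55 ± 0.18 FPKM. Subunits of the channel opened by acetylcholine were unequal, with Kcnj5 at 10.9, 10.7 and 11.2 FPKM and atrial Kcnj3 at 1.08, 1.39 and 1.26 FPKM. The ATP-sensitive channel showed Kcnj11 at 10.7, 8.1 and 12.7 FPKM and Kcnj8, its vascular form, at 1.68, 0.84 and 1.25 FPKM. Kcnj11 was 8.72 ± 2.03 times as high, while its sulfonylurea receptors were close: Abcc9 had 6.27, 7.47 and 7.27 FPKM and Abcc8 7.01, 7 and 7.06 FPKM. The Abcc9/Abcc8 ratio was 0.997 ± 0.091. Pacemaker channels remained measurable, as is known of neonatal myocytes. Hcn4 had 8.67, 9.59 and 11.5 FPKM and Hcn2 7.08, 7.08 and 6.45 FPKM, a ratio of 1.46 ± 0.29 with no overlap of the ranges. Hcn3 was under 0.05 FPKM on average, and the sinus node factors Shox2, Tbx3 and Isl1 had 0.117, 1.52 and 0.07 FPKM. The K2P leak channels Kcnk1, Kcnk2, Kcnk3, Kcnk5 and Kcnk6 were all under 3 FPKM.

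Of the sodium pump, the beta subunit Atp1b1 had 407 ± 2.9 FPKM and the regulator Fxyd1, called phospholemman, 583, 614 and 740.1 FPKM, highest in library 3.

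**Figure D3:**
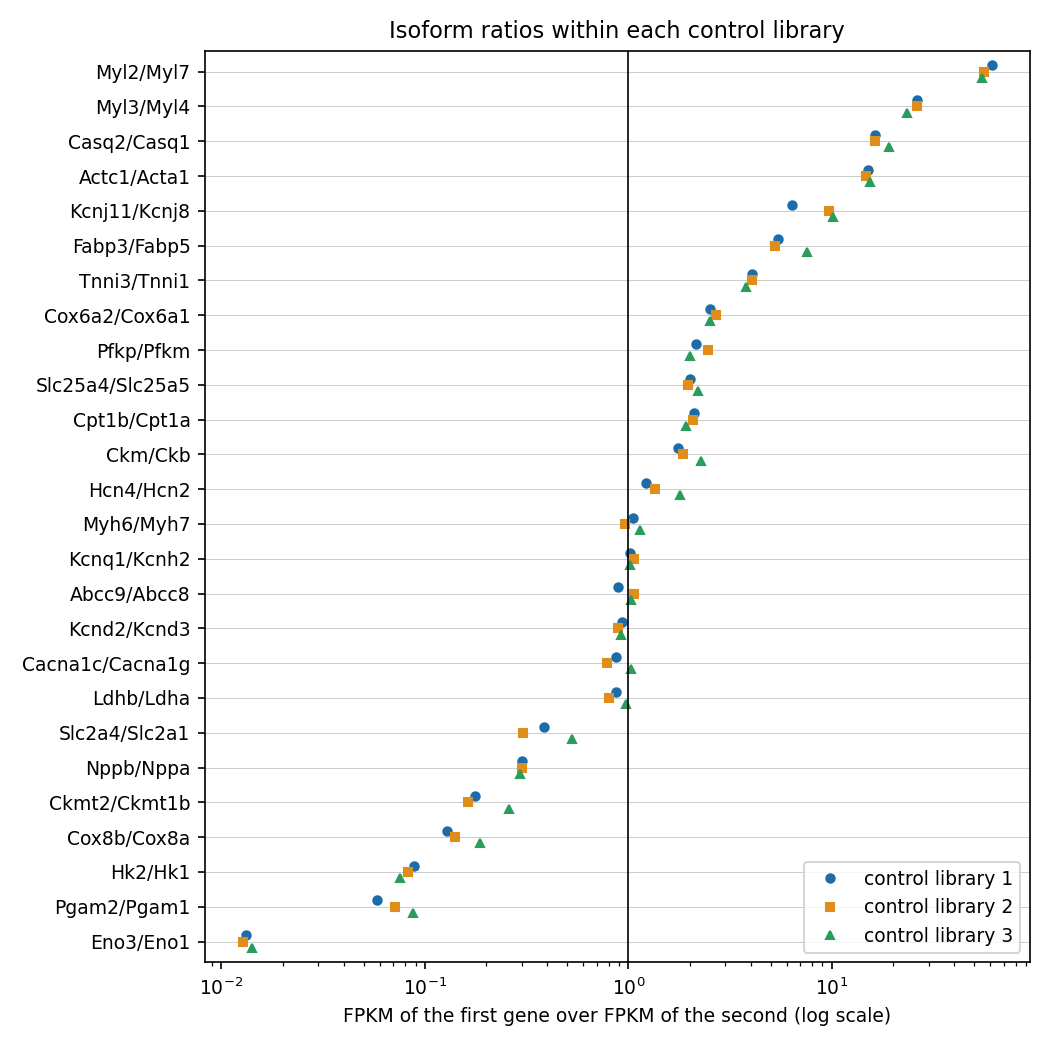
Selected ratios of the FPKM of a gene to that of a related gene within each control library, a subset of the 45 computed, on a log axis, ordered by the mean ratio, with a line at 1. Among those drawn, Myl2/Myl7 lies at 54.8 to 61.5 at the top and Eno3/Eno1 at 0.0127 to 0.0141 at the bottom, and Myh6/Myh7, Abcc9/Abcc8 and Cacna1c/Cacna1g have libraries on both sides of 1.

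Energy genes showed cardiac isoforms next to ubiquitous ones. Of the creatine kinases that buffer ATP, muscle Ckm had 90.4, 86.5 and 112 FPKM and brain-type Ckb 51.7, 46.8 and 49.2 FPKM, a Ckm/Ckb ratio of 1.96 ± 0.28. The mitochondrial kinases ran the other way. Sarcomeric Ckmt2, the adult heart form, had 4.73, 3.93 and 6.08 FPKM, below ubiquitous Ckmt1 at 26.7, 24.2 and 23.4 FPKM. Lactate dehydrogenase was nearly even, with heart-type Ldhb at 687, 618 and 745 FPKM and muscle-type Ldha at 790.4, 767 and 765 FPKM. Ldhb was below Ldha in each library, although the Ldhb/Ldha ratio of 0.883 ± 0.085 came near 1 in library 3, at 0.975.

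Among the glucose transporters and hexokinases, early and ubiquitous isoforms were the highest. The insulin-responsive adult glucose transporter Slc2a4 had 12.5, 9.19 and 14.5 FPKM, and the fetal and basal transporter Slc2a1 had 32.5, 30.3 and 27.4 FPKM. Slc2a4/Slc2a1 was 0.406 ± 0.11. Hexokinase was mostly Hk1, at 158, 167 and 178 FPKM, against 13.97, 13.7 and 13.4 FPKM for Hk2, the insulin-responsive form. For 3 enzymes further along glycolysis the picture was similar. Phosphofructokinase was led by Pfkp, with 148, 149 and 149.5 FPKM, above muscle Pfkm, with 68.6, 60.5 and 74.5 FPKM, and liver-type Pfkl, with 51.6 ± 2.8 FPKM. Of the phosphoglycerate mutases, muscle Pgam2 had 22.6, 26.1 and 32.05 FPKM and ubiquitous Pgam1 387, 366 and 366 FPKM. Of the enolases, muscle Eno3 had 12.1, 10.96 and 12.4 FPKM and ubiquitous Eno1 916, 862 and 881 FPKM, while neuronal Eno2 had 21.8 ± 1.5 FPKM. For these 3 enzymes the muscle form was thus not the highest, with Pgam2/Pgam1 at 0.0725 ± 0.015 and Eno3/Eno1 at 0.0133 ± 0.00069. Aldolase did not share this order: Aldoa, the form of muscle and many other tissues, led with 1109 ± 88 FPKM, against 12.02 ± 0.67 FPKM for Aldoc. The pyruvate kinase gene Pkm had 696 ± 16 FPKM, with its splice forms not separated. Pyruvate dehydrogenase kinases, which close the entry of pyruvate to the citric acid cycle, were led by Pdk2, with 50.3, 48.2 and 62.6 FPKM, and then Pdk1, with 25.2, 25.5 and 27.8 FPKM, while Pdk4, the form induced by fatty acids, had 14.2, 14.4 and 16.9 FPKM.

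Fatty acid genes were expressed alongside. Carnitine palmitoyltransferase 1, the gate of fatty acids into mitochondria, was mostly muscle Cpt1b, at 48.6, 46.96 and 51.5 FPKM, over liver-type Cpt1a, at 23.2, 22.5 and 26.9 FPKM. Cpt1b/Cpt1a was 2.03 ± 0.102. Fabp3, the heart fatty acid binding protein, ranked 51st with 1177, 1120.2 and 1364 FPKM, and Fabp5, found in endothelium and macrophages, had 215, 213 and 180 FPKM. The uptake protein Cd36 had 73.4 ± 4.6 FPKM and lipoprotein lipase, Lpl, 46.6 ± 1.3 FPKM. All 11 genes of fatty acid oxidation were at 10 FPKM or more, against 45.2% of all genes, from 32.3 FPKM for Acads to 335 FPKM for Acadl, both acyl-CoA dehydrogenases. All 20 measured genes of the citric acid cycle and the pyruvate dehydrogenase complex were at 10 FPKM or more as well, with a median of 191 FPKM.

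The respiratory chain held a large share of the transcriptome. The 75 nuclear genes of the chain and of ATP synthase held 5.68%, 5.41% and 6.11% of the FPKM sum in libraries 1, 2 and 3. The heart and muscle subunit Cox6a2 ranked 12th with 2589, 2605 and 2834 FPKM, above the ubiquitous Cox6a1 with 1027, 965 and 1128 FPKM. Cox6a2/Cox6a1 was 2.58 ± 0.11. For subunit 8 the order was the reverse, with ubiquitous Cox8a at 712, 589 and 749 FPKM and muscle Cox8b at 91.7, 83.4 and 139.9 FPKM. Cox8b had the largest coefficient of variation of the 9 measured genes in the cytochrome oxidase list, being highest in library 3. Atp5b, the catalytic beta subunit of ATP synthase, had 2049, 1969 and 2296 FPKM. The adenine nucleotide translocases that export ATP were Slc25a4, the muscle form, at 1118, 1000.4 and 1162 FPKM, and Slc25a5 at 558, 509 and 526 FPKM, a ratio of 2.06 ± 0.13. Ucp2 had 209 ± 18 FPKM, and Ucp1 and Ucp3 were listed at 0. Myoglobin, Mb, had 115, 122 and 141 FPKM. Of the regulators of mitochondrial genes, Ppargc1a had 16.96, 20.5 and 24.4 FPKM, Esrra 31.01, 27.99 and 32.1 FPKM, Ppard 28.1 ± 0.45 FPKM and Ppara 4.88 ± 0.65 FPKM. Mitochondrially encoded genes were not analysed here.

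Receptors and cardiac transcription factors were at moderate levels. Adrb1, the main beta-adrenergic receptor of myocytes, had 16.6, 15.9 and 14.4 FPKM. The alpha-1 receptors Adra1a, Adra1b and Adra1d lay close together at 5.98, 5.87 and 5.73 FPKM on average, with overlapping ranges. Chrm2, the muscarinic receptor of the heart, had 22.99, 24.2 and 27.1 FPKM, and Ednra, the endothelin receptor of muscle, 16.2, 16.2 and 20.1 FPKM. The angiotensin receptor Agtr1a had 2.48, 2.49 and 1.19 FPKM, and Agtr2 was listed at 0. Among transcription factors, Gata4 had 127, 126 and 139 FPKM and Nkx2-5 90.6, 86.3 and 95.3 FPKM. Tbx20 and Hand2 followed at 88.8 ± 12 FPKM and 83.2 ± 3.7 FPKM, and Mef2a and Mef2d at 64.2 ± 6.03 FPKM and 48.8 ± 5.6 FPKM. Hand1, of the left ventricle and outflow tract, and Tbx5 were lower at 5.99 ± 1.4 FPKM and 6.5 ± 1.3 FPKM. Of the kinases that act on calcium handling proteins, Camk2d had 35.2 ± 1.98 FPKM and Camk2g 16.2 ± 1.96 FPKM. Small heat shock proteins, which protect desmin and titin, were high. Cryab had 1137, 1098 and 1191 FPKM and Hspb7 766, 798 and 869.9 FPKM.

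Genes of cell division were expressed. All 10 proliferation genes were detected at 10 FPKM or more, against 45.2% of all genes, and they held 0.0749%, 0.0756% and 0.0664% of the FPKM sum. Pcna, the clamp of DNA polymerase, had 118, 106 and 94.05 FPKM, Cdk1, the mitotic kinase, 75.5, 73 and 68.7 FPKM, and Mki67, a marker of cycling cells, 29.6, 33.7 and 29.9 FPKM. Which cells of the culture carried these transcripts was not tested.

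Markers of other cell types were present beside the myocytes. Of 17 endothelial markers 15 were detected and 13 were at 10 FPKM or more, against 70% and 45.2% of all genes. Eng, a TGF-beta co-receptor of endothelium, had 294, 295 and 247 FPKM, and the adhesion molecules Cdh5 and Pecam1 had 90.2, 103 and 84.8 FPKM and 93.5, 95.1 and 77.1 FPKM. Emcn, Tie1, Esam, Egfl7 and Erg followed at means of 29.9 to 34.8 FPKM, and the receptors Kdr, Flt1 and Tek had 9.87, 12.9 and 19.4 FPKM. Cldn5, a tight junction protein of endothelium, was at 0 in 2 libraries and at 0.15 FPKM in the third, and Robo4 was at 0 in 1 library. The 17 markers held 0.129%, 0.132% and 0.111% of the FPKM sum, and the 14 measured cardiomyocyte markers held 6.05%, 6.21% and 6.68%. In bulk RNA, fewer cells of a type and less RNA per cell cannot be told apart, so these shares are not cell shares. Selp and Sele, adhesion molecules of activated endothelium, had 165, 155 and 125 FPKM and 2.73, 1.87 and 1.87 FPKM.

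Fibroblast markers were uneven. Col1a1 and Col1a2, the chains of type I collagen, had 229, 253 and 179.6 FPKM and 137, 163 and 106 FPKM, whereas Dcn, the matrix proteoglycan that marks resident fibroblasts, had 16.6, 18.4 and 12.7 FPKM. Pdgfra, the growth factor receptor of cardiac fibroblasts, had 0.75, 1.1 and 0.84 FPKM and the lineage factor Tcf21 0.8, 1.43 and 1.24 FPKM. Collagen was thus well above the markers that define the lineage. Of the 13 markers 9 were detected, a share close to the 70% of all genes, and the list held 0.0762%, 0.0885% and 0.0605% of the FPKM sum. Postn, Thy1, Ddr2, Fbln1 and Lum were at 12.9, 5.83, 5.37, 3.25 and 3.01 FPKM on average. Other matrix genes were high: Sparc, a collagen-binding protein, had 1576, 1631 and 1811 FPKM, and Fn1, fibronectin, 315, 366 and 303 FPKM.

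The smooth muscle and pericyte list included genes that immature myocytes are known to express too. Tagln, an actin-binding protein, had 673, 666 and 581 FPKM. The more restricted members were low, with Myh11 at 2.43, 2.26 and 2.6 FPKM, Rgs5, a pericyte gene, at 1.06, 1.06 and 0 FPKM, and Pdgfrb at 8.92, 10.7 and 8.16 FPKM.

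Of 15 macrophage markers 14 were detected and 9 were at 10 FPKM or more, against 70% and 45.2% of all genes. Fcer1g and Tyrobp, adaptors of myeloid receptors, had 52.7, 68.8 and 44.8 FPKM and 39.1, 41.02 and 35.1 FPKM, and lysozyme, Lyz2, had 56.4, 61.5 and 45.9 FPKM. Ptprc, the pan-leukocyte antigen CD45, had 3.68, 4.67 and 3.41 FPKM, and Cd68, a lysosomal protein of macrophages, 28.8, 42.8 and 34.1 FPKM. Cd163, a receptor of resident macrophages, was the exception with 0.0533 FPKM. The list held 0.0472%, 0.0582% and 0.0441% of the FPKM sum. Lymphocyte markers were at or near 0: Cd3e, Cd3g and Nkg7 were listed at 0 and Cd3d had 0.17 FPKM in 1 library. Globins were measurable, with Hba1 at 73.3, 93.2 and 82.5 FPKM and Hbb at 53.6, 68.2 and 65.7 FPKM, while the erythroid enzyme Alas2 had 0.81 ± 0.31 FPKM. The Hba1 and Hba-a2 rows are near copies and uncertain. Platelet Pf4 had 68.4, 67.2 and 53.4 FPKM, although Ppbp, the other abundant platelet chemokine, was listed at 0. Epicardial Wt1 and Msln had 2.43, 4.52 and 2.14 FPKM and 5.58, 9.07 and 4.06 FPKM, lymphatic Prox1 and Lyve1 3.78, 4.07 and 5.46 FPKM and 1.87, 2.7 and 1.55 FPKM, and the mast cell receptor Kit 2.87, 2.46 and 2.61 FPKM. Neutrophil Mpo, mast cell Tpsb2, neuronal Th, and adipocyte Plin1 and Lep were listed at 0, whereas Uchl1, high in neurons but not restricted to them, had 55.6, 51.1 and 52.4 FPKM. Both Xist, made from the inactive X chromosome of females, and the Y-linked Eif2s3y were present in every library, with 33.1, 34.5 and 28.9 FPKM and 28.5, 29.1 and 22.8 FPKM. The other measured Y-linked gene, Ddx3y, was far lower, with a mean of 0.9 FPKM and a range of 0.72 to 1.02 FPKM. The sex of the animals was not tested.

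**Figure D4:**
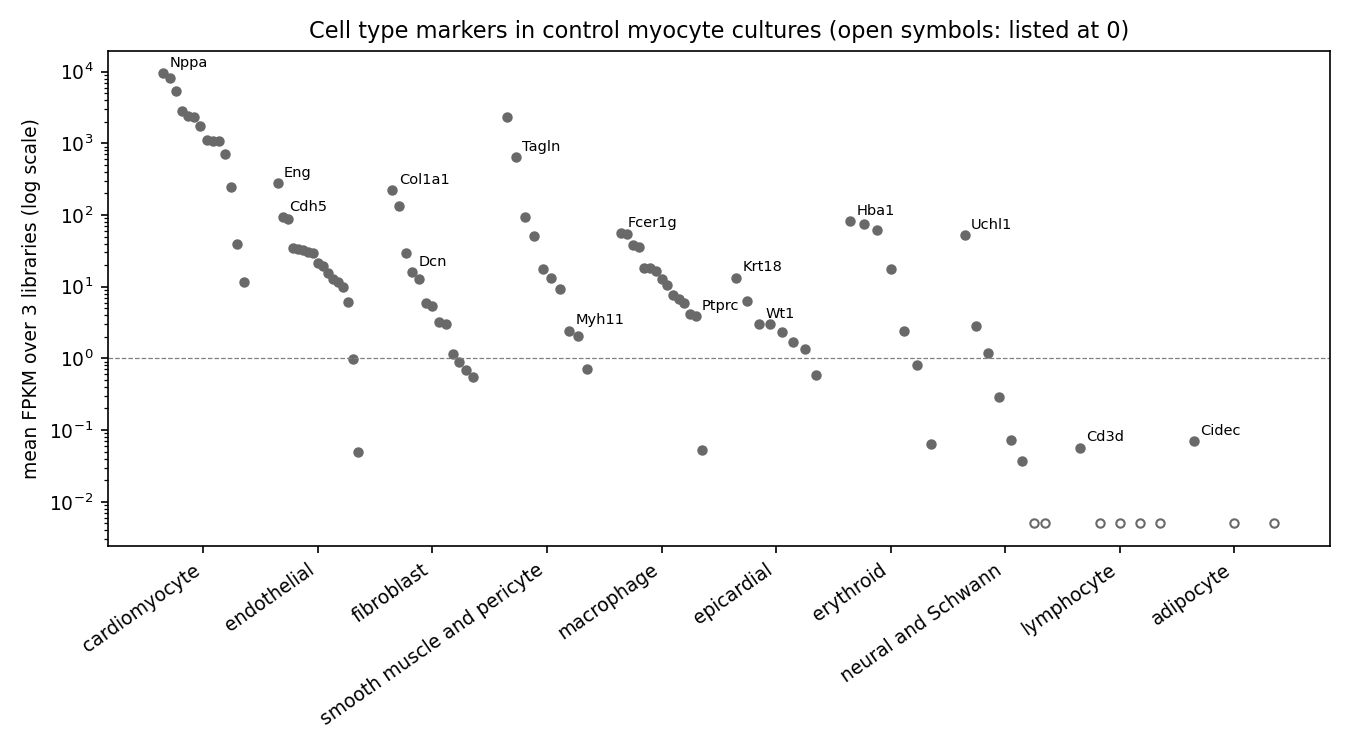
Mean FPKM over the 3 control libraries of every measured marker of 10 cell type lists, sorted within each list, on a log axis. Open symbols at the foot stand for genes listed at 0 and the dashed line marks 1 FPKM. Cardiomyocyte markers lie at 11.8 to 9495 FPKM, endothelial and macrophage markers mostly between 1 and 300 FPKM, and lymphocyte and adipocyte markers at or near 0.

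Several chemokine genes were abundant in these controls. Ccl2, the chemokine that draws monocytes, ranked 37th of all genes with 1556, 1536 and 1178 FPKM. Cxcl1 and Cxcl10, which draw neutrophils and T cells, had 468, 444 and 299 FPKM and 440.2, 446 and 400.2 FPKM, and Ccl7 had 457, 414 and 355 FPKM. Of the 26 measured chemokine and cytokine genes 24 were detected and 15 were at 10 FPKM or more, against 70% and 45.2% of all genes. Upstream cytokines were lower, with Tnf at 10.8, 10.1 and 8.46 FPKM, Il1b at 9.5, 7.88 and 7.01 FPKM and Il6 at 2.56, 3 and 1.81 FPKM. Lcn2, an iron-binding acute phase protein, had 447, 407 and 355 FPKM, the adhesion molecule Icam1 102, 92.6 and 82.8 FPKM, and inducible nitric oxide synthase, Nos2, 12.5, 13.6 and 11.5 FPKM. Edn1, the precursor of endothelin 1, had 109.8, 105 and 72.1 FPKM. The part of the transfection and of the serum in these levels was not tested, since untreated cells were not analysed here.

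The 3 libraries differed over the marker lists, and library 3 stood apart there, as seen after its values were known. Over all detected genes the difference was smaller. Library 1 was the highest or lowest for 63.2% of them, library 2 for 63.1% and library 3 for 72.7%. Spearman correlations across all genes were 0.991 for every pair of libraries, so they did not set library 3 apart. Of the 10250 detected genes, library 3 was the highest of the 3 for 29.9% and the lowest for 42.8%. With median-ratio scaling of the libraries those shares became 36.9% and 35.9%. Without that scaling, against the shares of 29.9% and 42.8%, library 3 was the highest for 12 of 14 cardiomyocyte markers and the lowest for none. The exceptions were Nppb and Csrp3. With median-ratio scaling library 3 was the highest for 13 of the 14. The list counts below are without that scaling unless stated. Myh6 had 2822 FPKM in library 3, against 2195 and 2276 FPKM in libraries 1 and 2, and Myl2 had 4477 FPKM in library 3, against 3647 and 3559.9 FPKM in libraries 1 and 2. Of the FPKM sum, the cardiomyocyte markers held 6.68% in library 3, against 6.05% and 6.21% in libraries 1 and 2. Metabolic genes leaned the same way, with library 3 highest for 59 and lowest for 3 of 75 respiratory chain and ATP synthase genes, highest for 9 and lowest for none of 11 fatty acid oxidation genes, and highest for 14 and lowest for 1 of 20 citric acid cycle genes. Cox6c went against this with 583 FPKM in library 3, against 1001 and 781 FPKM in libraries 1 and 2.

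Endothelial, fibroblast and macrophage markers were mostly lower in library 3. It was the lowest for 14 of 15 detected endothelial markers, all but Kdr, for 8 of 9 fibroblast markers, all but Thy1, and for 11 of 14 macrophage markers. With median-ratio scaling these counts were 13 of 15, 8 of 9 and 9 of 14. Other vascular lists did not follow so clearly: library 3 was the highest for 3 and the lowest for 1 of 4 lymphatic endothelial markers, and the highest for 2 and the lowest for 5 of 9 detected smooth muscle and pericyte markers. The endothelial coreceptor Eng had 247 FPKM in library 3, against 294 and 295 FPKM in libraries 1 and 2. The collagen gene Col1a1 had 179.6 FPKM in library 3, against 229 and 253 FPKM in libraries 1 and 2. The proteoglycan gene Dcn had 12.7 FPKM in library 3, against 16.6 and 18.4 FPKM in libraries 1 and 2. These lists held less of the sum there: fibroblast markers held 0.0605% in library 3, against 0.0762% and 0.0885% in libraries 1 and 2. The median log2 ratio of library 3 over the mean of libraries 1 and 2 was -0.42 for fibroblast, -0.28 for macrophage and -0.25 for endothelial markers, against 0.16 for cardiomyocyte markers and -0.03 for all detected genes. Chemokine and cytokine genes were lowest in library 3 for 22 of 24, with a median of -0.30, inducible inflammatory genes for 10 of 12 and proliferation genes for 9 of 10. With median-ratio scaling these counts were 21 of 24, 10 of 12 and 7 of 10. Ccl2 had 1178 FPKM in library 3, against 1556 and 1536 FPKM in libraries 1 and 2. The cardiomyocyte list and the endothelial, fibroblast and macrophage lists thus differed in direction between library 3 and the other libraries, and the inflammatory and proliferation genes were lowest in the library where cardiomyocyte markers held the largest share. The part of cell composition in those levels was not tested. With 3 libraries of 1 group, a paired exact sign-flip test cannot give a p below 0.25, so no test is given.

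**Figure D5:**
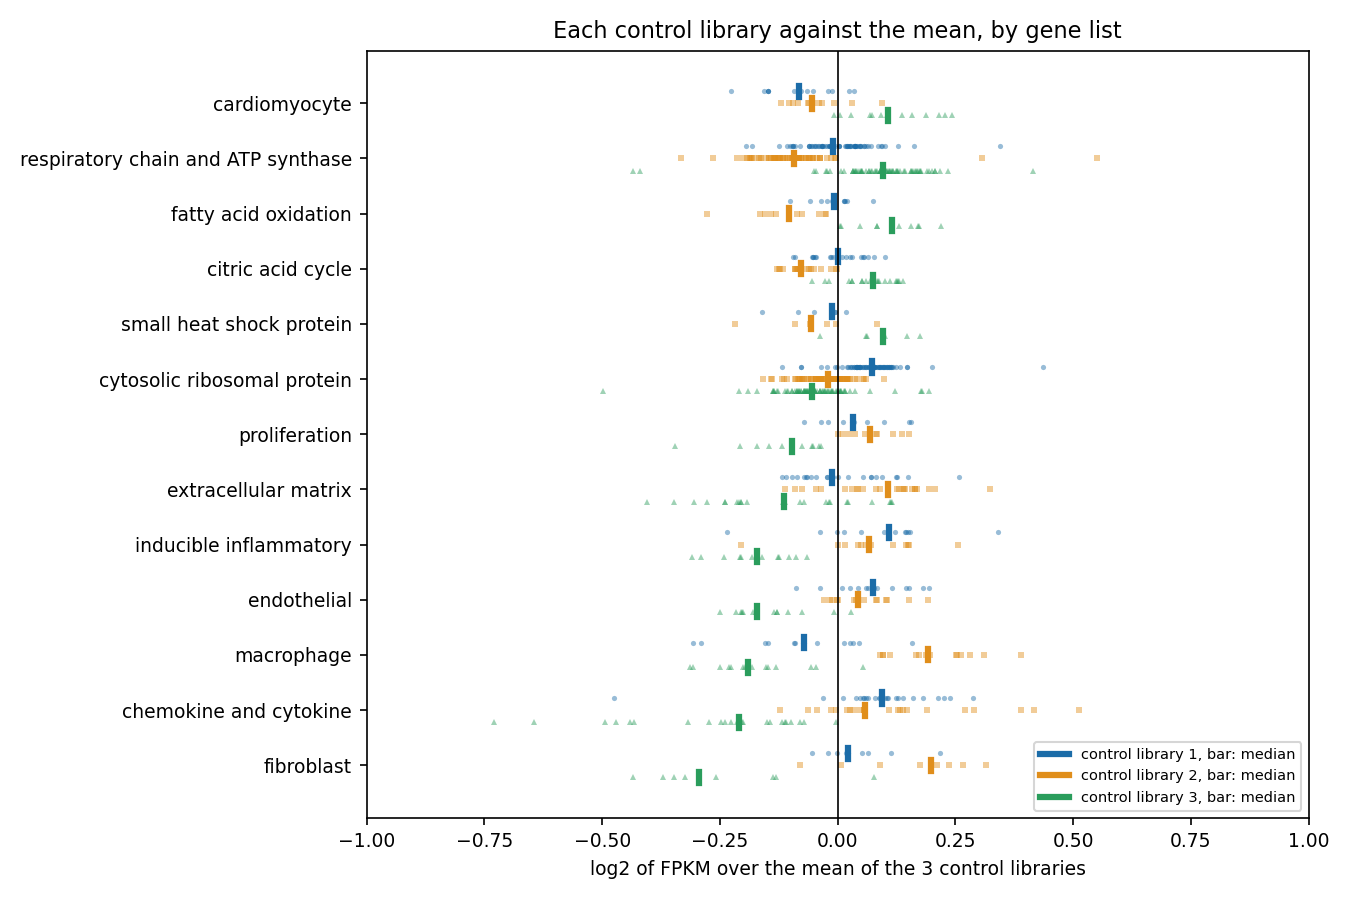
Log2 of the FPKM of each detected gene over its mean in the 3 control libraries, by gene list, with a small symbol per gene and a bar at the median of each library. The median of library 3 lies right of 0 for cardiomyocyte and metabolic lists and left of 0 for endothelial, fibroblast, macrophage, cytokine and proliferation lists, and macrophage genes also differ between libraries 1 and 2.

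Variation between the libraries depended on level. The median coefficient of variation was 11.9% for 3864 genes with a mean of 1 to 10 FPKM, 6.48% for 5638 genes from 10 to 100 FPKM, 5.52% for 905 genes from 100 to 1000 FPKM and 5.80% for the 74 genes above. Among genes with a mean of 10 FPKM or more, the 15 most variable were LOC500035, Serpinb2, Mir6328, Wfdc21, Mir3584, Sdhaf3, Fbxo32, Gmfg, Rpl37a, Ptgds, Lox, Cxcl6, Hipk2, Hamp and F3. Serpinb2, an inhibitor of plasminogen activators, had 9.47 FPKM in library 3, against 13.5 and 23.6 FPKM in libraries 1 and 2, and Lox, the enzyme that crosslinks collagen, had 12.1 FPKM in library 3, against 15.2 and 22.3 FPKM in libraries 1 and 2. In contrast, Fbxo32, a muscle ubiquitin ligase of atrophy, had 19.2 FPKM in library 3, against 9.52 and 13.2 FPKM in libraries 1 and 2, and Hamp, hepcidin, had 83.2 FPKM in library 3, against 47.5 and 57.2 FPKM in libraries 1 and 2. Rpl37a was the only ribosomal protein gene among the 15, with 178 FPKM in library 3, against 340.1 and 236 FPKM in libraries 1 and 2, and library 1 was there the highest. Of the FPKM sum, ribosomal protein genes, 78 rows with many near copies in the genome, held 12.4% in library 3, against 13.2% and 12.7% in libraries 1 and 2. The 10 least variable genes were Metap2, Sart1, Zfp266, Spry2, Coa3, Eif4g2, Ptdss2, Tmem184c, Rps26 and Cdk14. Metap2, a methionine aminopeptidase, had 158, 158 and 158 FPKM, and Eif4g2, a translation initiation factor, had 327, 326 and 326 FPKM, values that differed by less than 1% between libraries.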

How the data were processed

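The authors deposited FPKM for each gene and library, per the file headers, rounded to 2 decimals, with no counts. Reads were handled with Bowtie2 and HISAT on genome build rn6, per the submitters' processing notes, which state neither versions nor roles. The counting tool and annotation are not given in the sources used here. The 3 control columns were matched to samples by name, and 1 other column of values, which names no sample, was not used. Of the gene IDs, 14516 matched a RefSeq gene table, and 31 symbols were taken from it or left as IDs.

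Means, SDs, coefficients of variation, ranks, ratios within each library and shares of the FPKM sum were computed with Python 3.11.15, numpy 2.4.6 and pandas 2.3.3, and plots with matplotlib 3.10.9. The scripts were tested on simulated data. No pseudocount or filter was used unless stated. The text names the 40 highest genes, all members of the families, the cell type markers, the siRNA targets, and among genes with a mean of 10 FPKM or more the 15 most and 10 least variable. Members and lists were chosen with earlier results of these data known, and 9 lists and 29 ratios were added after the values were seen, as were the counts for library 3. Other values named from these added lists, and Cox6c, were chosen after their values were seen. Some of these genes are not reported here. Alternatives were medians over libraries, FPKM rescaled to the same sum in each library, other thresholds, pseudocounts of 0.1 and 1 FPKM, and leaving out each library.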

Additional observations from a re-analysis of the deposited data

How the results depend on the processing

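Of 227 alternative values for 34 results, 221 stayed within the spread between libraries or within 1.5 times the count, including all 93 that left out 1 library. For ratios and shares, medians and leaving out 1 library cannot exceed that spread with 3 libraries. Rescaling to the same sum leaves ratios and shares unchanged by construction. These alternatives therefore do not test stability. The other 6 alternative values moved. A threshold of 10 in place of 1 FPKM left a mean of 6589 genes per library, fewer by construction. With 1 FPKM added to both genes, Atp2a2/Atp2a1 became 616, Kcnd2/Kcnd3 0.934 and Kcnj11/Kcnj8 5.13, since these genes are low. Counting only markers at or above 1 FPKM gave neutrophil and mast cell markers 0.000457% of the FPKM sum. Among chemokine and cytokine genes with a mean of 10 FPKM or more, a choice made after seeing the data, library 3 was lowest for 14 of 15. For the 15 gene lists rescaled, the median log2 ratio of library 3 over libraries 1 and 2 kept its sign under both other scalings. The median-ratio factors were 1.009, 1.007 and 0.986 for libraries 1, 2 and 3. Scalings this close to the main one could hardly change a sign, so the check is weak. No paired analysis was possible because no result comes from a test: the siRNA targets are given as values per library, and all other results use the controls only. Without counts, the precision of low values is unknown, and genes with near-identical copies are uncertain.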

Other observations

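Some rows fall outside the gene lists. Ribosomal RNA rows had values although the protocol selects poly-A RNA: Rn18s had 694, 428 and 486 FPKM and Rn28s 519.7, 325.7 and 337 FPKM in libraries 1, 2 and 3, highest in library 1. Of 105 rows for miRNA hairpins 50 were listed at 0 in every library and 11 were detected. Mir3064 was the highest with 70.5, 99.2 and 59.9 FPKM, and Mir22 had 7.35, 18.5 and 3.67 FPKM. These rows are shorter than a typical sequenced fragment, so their FPKM values are not a measure of mature miRNA.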
